A study of Mus musculus with 20 samples.

Results

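Growth hormone receptor, STAT5, SOCS and PIM genes were followed in fetal mouse liver as 10 members, chosen by name. They were Ghr, Prlr, Stat5a, Stat5b, Socs2, Socs3, Cish, Pim1, Pim2 and Pim3, chosen with earlier results of these data known. All 10 were found among 26830 genes with a count in at least 1 fetus, and all 10 passed the filter on low counts. Polyadenylated RNA of the right liver lobe came from 20 male CD-1 IGS mouse fetuses at embryonic day 18.5. Dams under maternal nutrient restriction (MNR) gave 10 of them and control dams the other 10, with 2 littermates from each of 5 litters per group. The labels give no genetic alteration and no agent for either group, and do not detail the diet. A litter is named by its letter within a group and a fetus by letter and number, so MNR A_2 is the second fetus of MNR litter A, and equal letters in the groups do not denote a shared dam. The question addressed is whether transcripts of these genes differ between livers of nutrient-restricted and control pregnancies.

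Growth hormone and prolactin bind single-pass receptors that carry the kinase JAK2. JAK2 phosphorylates STAT5A and STAT5B, which enter the nucleus, bind DNA as dimers and raise transcription of target genes, among them the feedback inhibitors SOCS2 and CIS and the kinase PIM1. In postnatal liver this chain drives production of insulin-like growth factor 1, whereas the liver before birth is also a blood-forming organ, in which erythropoietin and thrombopoietin act through STAT5 as well. The PIM kinases are serine/threonine kinases that are active as soon as they are made, so their amount is set largely by transcription, translation and protein turnover.

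STAT dimers recognise the palindrome TTCNNNGAA, and promoter windows of the members were searched for it. The windows run from 250 bases before to 50 after each transcription start in RefSeq (build GRCm38.p6), and 15 windows belonged to 9 of the 10 members; Socs2 is named only. The palindrome reads the same on both strands, so a search of 1 strand covers both. It was present in 3 windows of 3 members, 1 each of Prlr, Socs3 and Cish, and in 8.30% of all 32851 windows. The windows of Pim3, the member that differed between the groups, and of Socs3 and Cish, which hold the motif upstream of and at the start site, are printed 5′ to 3′ with the motif in capitals.
Pim3 (chr15:88861944-88862243, plus strand): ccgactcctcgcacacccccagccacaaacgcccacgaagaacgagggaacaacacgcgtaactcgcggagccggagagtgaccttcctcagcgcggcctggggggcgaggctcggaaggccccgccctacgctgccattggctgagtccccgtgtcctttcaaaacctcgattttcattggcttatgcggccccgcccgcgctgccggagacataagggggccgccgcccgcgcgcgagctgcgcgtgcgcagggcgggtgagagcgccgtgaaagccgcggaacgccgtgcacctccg
Socs3 (chr11:117969317-117969616, minus strand): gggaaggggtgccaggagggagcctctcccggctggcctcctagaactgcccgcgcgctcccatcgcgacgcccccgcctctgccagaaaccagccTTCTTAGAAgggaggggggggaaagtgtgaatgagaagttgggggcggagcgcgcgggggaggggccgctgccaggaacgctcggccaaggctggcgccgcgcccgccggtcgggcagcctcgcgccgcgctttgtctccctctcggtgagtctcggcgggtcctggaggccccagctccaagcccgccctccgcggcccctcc
Cish (chr9:107296409-107296708, plus strand): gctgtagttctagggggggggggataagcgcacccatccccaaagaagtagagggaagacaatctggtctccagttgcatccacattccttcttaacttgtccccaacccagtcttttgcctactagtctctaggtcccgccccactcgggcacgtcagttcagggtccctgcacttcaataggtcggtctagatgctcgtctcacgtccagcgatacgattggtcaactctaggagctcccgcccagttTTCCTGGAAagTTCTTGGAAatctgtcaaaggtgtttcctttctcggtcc
The window of Pim3 holds no match. The match of Socs3 begins 154 bases before the start site. In Cish, matches begin at bases 1 and 12 counted from the start site, so 2 copies lie side by side. The match of Prlr begins 110 bases before the start of 1 of its 3 windows. A match is a description of letters and not evidence of binding, and a window without a match says nothing of the factor.

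Counts per fetus totalled 16703824 to 28016953 in MNR and 14925778 to 27848100 in control livers, and members held between 54 counts (Pim2) and 4574 counts (Pim3) in a fetus. Levels are given as CPM, counts relative to the TMM-scaled library size. Counts of littermates were summed and 5 MNR litters set against 5 control litters in a two-sided quasi-likelihood test of edgeR, Benjamini-Hochberg adjusted over 17573 genes (threshold 0.05). Hepatocyte markers were abundant in every litter: the 9 matched genes summed to 140386 to 163710 CPM in MNR and 146312 to 169270 CPM in control litters. Erythroid markers summed to 23307 to 31182 CPM in MNR and 22554 to 35612 CPM in control litters, and 0 of 12 passed the test. Pancreatic transcripts stood out in 3 fetuses, with 236 Cpa1 counts in MNR B_1, 134 in MNR E_1 and 511 in control B_1, against at most 40 in any other fetus. Because whole liver was measured, fewer cells of a type and less RNA per cell cannot be told apart.

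Of the 10 members, Pim3 alone rose in MNR livers, 2.01-fold, 0 fell and 9 did not pass the test. Over the whole transcriptome 0.666% of genes passed in either direction, and 0.415% passed as higher. An unadjusted p under 0.05 was reached by 4 of 10 members (Ghr, Prlr, Stat5b and Pim3) against 19.6% of all genes. For 1 of 10 members, Pim3, no MNR litter fell within the control range or the reverse, against 4.5% of all genes. Because the members were chosen with earlier results of these data known, these shares describe the counts and do not test the set. Among the log2 fold changes of the members 5 were positive and 5 negative, with a median of -0.04, close to the -0.003 over all genes. The number of genes called over the whole table moved with single litters: 117 were called with all litters, 2, 0, 30, 512 and 0 without MNR litter A, B, C, D or E, and 0, 843, 0, 2 and 0 without control litter A, B, C, D or E.

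**Figure D1:**
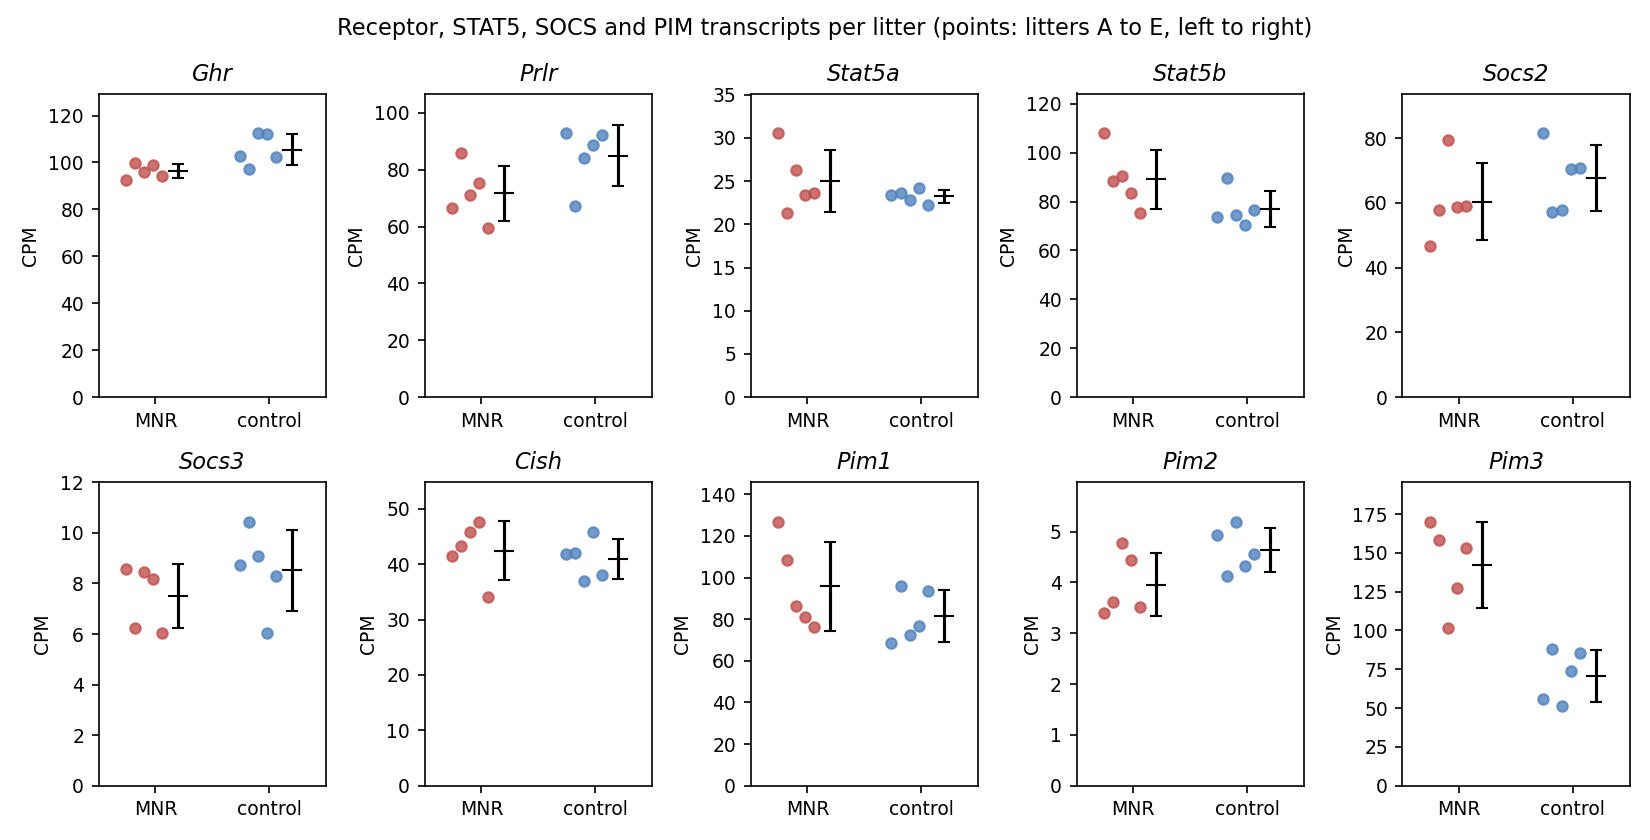
Each panel shows CPM per litter for a member on a linear axis from 0, with MNR litters in red on the left and control litters in blue on the right, litters A to E from left to right; the bar beside them is the mean and SD over 5 litters. Pim3 is the panel in which the groups separate, the lowest MNR litter at 102 CPM and the highest control litter at 88.1 CPM.

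**Figure D2:**
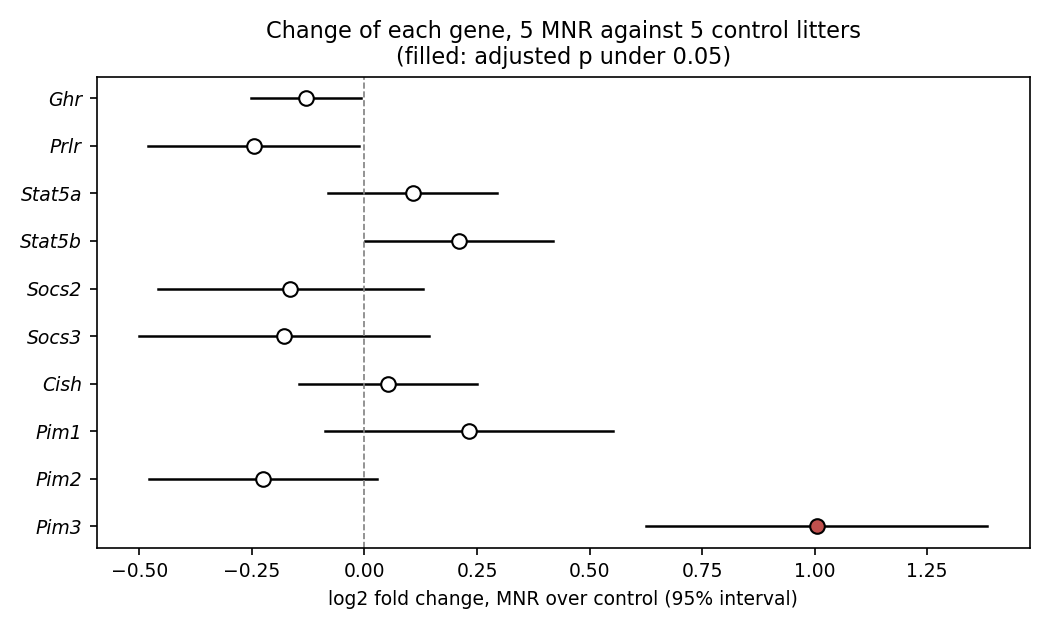
The log2 fold change, MNR over control litters, is drawn for each member with its 95% interval; a filled point has an adjusted p under 0.05. Pim3 lies at 1.0 (0.63 to 1.38), and the other points lie between -0.25 and 0.23.

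The receptors come first in the chain. Ghr (chr15:3267760-3533492, minus strand, mm9) encodes the growth hormone receptor. It had 92.4, 99.98, 96.1, 99.0 and 94.3 CPM in MNR litters A to E, against 103, 97.2, 113, 112 and 102 CPM in control litters. The MNR litters were tightly grouped, and 3 of 5 lay below every control litter, but the groups overlapped because of control litter B. The log2 fold change was -0.13 (SE 0.056), with an adjusted p of 0.229 in edgeR, and the 95% interval of the fold change ran from 0.840 to 0.995. The largest difference between littermates was 0.18 on the log2 scale (control A), smaller than the largest of any other member.

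Prlr (chr15:10106993-10303504, plus strand, mm9) encodes the prolactin receptor, which also binds placental lactogens. It had 66.6, 85.7, 71.2, 75.2 and 59.5 CPM in MNR litters, against 92.9, 67.1, 84.0, 88.8 and 92.1 CPM in control litters. MNR litter B lay with the high control litters and control litter B with the low MNR litters. Prlr had a log2 change of -0.25 (SE 0.107; edgeR adjusted p = 0.235), a fold change of 0.843 with an interval of 0.717 to 0.992. Of the 3 fetuses with pancreatic transcripts, MNR E_1 and control B_1 had the lowest Prlr levels of their groups, 52.4 and 53.1 CPM, and MNR B_1 had 83.4 CPM. Without these 3 fetuses the log2 fold change was -0.25 (edgeR adjusted p = 0.133). Prlr shares 155 exon bases with Agxt2 on the same strand, so reads there cannot be assigned to either gene.

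Both receptors are counted over several annotated transcripts. Ghr-005, a protein-coding transcript of 4175 bases, held 50.2% ± 2.09 of Ghr counts in MNR and 52.7% ± 0.920 in control litters (SD, n = 5 each; exact permutation test, two-sided, p = 0.0714). The log2 fold change was -0.21 for this transcript (SE 0.065; edgeR adjusted p = 0.128 over transcripts), and Ghr-001, also protein coding, -0.07 (SE 0.061; edgeR adjusted p = 0.612). Prlr-005, the longest transcript of Prlr at 9900 bases, held 46.6% ± 2.50 in MNR and 46.5% ± 3.79 in control litters (SD, n = 5 each; exact permutation p = 0.976). The share of the main transcript was tested for 7 members, of which 0 had an exact p under 0.05, and the smallest p that 5 against 5 litters can give is 0.00794. After Benjamini-Hochberg adjustment over the 7 shares the exact permutation p of Ghr-005 was 0.472. Prlr-005 has 7621 bases found in no other transcript of the gene and Ghr-005 has 1249, while Prlr-001 and Prlr-003 have 0, so shares of such transcripts also reflect how the counting divided shared reads.

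STAT5A and STAT5B are the transcription factors of the chain, encoded by neighbouring genes with very similar sequences, and STAT5B is the main form in liver. Stat5b (chr11:100642045-100712038, minus strand, mm9) had 108, 88.3, 90.3, 83.3 and 75.2 CPM in MNR litters, against 73.7, 89.8, 74.3, 70.3 and 76.6 CPM in control litters. MNR litters A and C lay above every control litter, and the other MNR litters lay within the control range. Stat5b had a log2 change of 0.21 (SE 0.096; edgeR adjusted p = 0.250), with an interval of the fold change from 1.002 to 1.34. Within MNR litter A the littermates differed, with 93.1 CPM in A_1 and 124 CPM in A_2, and the log2 fold change was 0.16 without A_2 (edgeR adjusted p = 0.317) and 0.13 without the whole litter.

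Stat5a (chr11:100720665-100746483, plus strand, mm9) was lower than Stat5b, at 30.6, 21.3, 26.3, 23.4 and 23.6 CPM in MNR litters, against 23.3, 23.6, 22.8, 24.1 and 22.2 CPM in control litters. The control litters spanned less than 2 CPM. MNR litters A and C lay above them, B below, and D and E within their range. The SD on the log2 scale was 0.20 in MNR and 0.05 in control litters, and the log2 fold change was 0.11 (SE 0.086; edgeR adjusted p = 0.528; fold interval 0.946 to 1.23). Without MNR litter A, the highest, its log2 change was 0.02. Stat5b made up 78.0% ± 1.62 of the STAT5 counts in MNR and 76.7% ± 1.77 in control litters (SD, n = 5 each). Reads that match both genes may have been given to either, since no source used here states how they were treated, and Stat5a also shares 72 exon bases with Stat3 on the opposite strand.

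The feedback inhibitors follow. Socs2 (chr10:94847996-94879814, minus strand, mm9) encodes a ubiquitin ligase adaptor that limits growth hormone signalling, and mice without it grow large. It had 46.6, 57.7, 79.6, 58.9 and 59.0 CPM in MNR litters, against 81.6, 57.3, 58.0, 70.5 and 70.9 CPM in control litters. The ranges overlapped over most of their length, and the log2 fold change was -0.16 (SE 0.135; edgeR adjusted p = 0.539; fold interval 0.727 to 1.09). Socs2 had the largest difference between littermates of any member: MNR A_1 had 64.0 CPM and MNR A_2 30.3 CPM, 1.08 apart on the log2 scale. The median difference between littermates, 0.40, was also above that of the other members, whose medians lay between 0.08 and 0.29. Of its 15 annotated transcripts, Socs2-001, Socs2-202 and Socs2-203 held 25.6%, 23.9% and 23.2% of its counts in MNR and 26.3%, 23.5% and 23.8% in control litters.

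Cish (chr9:107198357-107205115, plus strand, mm9) encodes CIS, which binds activated cytokine receptors and competes with STAT5 there. It had 41.5, 43.2, 45.8, 47.7 and 34.0 CPM in MNR litters, against 41.8, 42.0, 37.0, 45.9 and 38.0 CPM in control litters. MNR litters held both the highest and the lowest value, and the log2 fold change was 0.05 (SE 0.091; edgeR adjusted p = 0.790; fold interval 0.905 to 1.19). With fetus 2 of each litter alone it was -0.03, so its sign depended on the fetus taken. Cish shares exon bases on the opposite strand with Gm17041 (479) and Gm17040 (261), and no source used here states whether counting used strand, so reads of these partners may be included.

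Socs3 (chr11:117827393-117831361, minus strand, mm9), the inhibitor of interleukin-6 receptor signalling induced through STAT3, was low, at 6.04 to 8.59 CPM in MNR and 6.06 to 10.4 CPM in control litters. Its groups overlapped, and the log2 change in MNR was -0.18 (SE 0.148; edgeR adjusted p = 0.543; fold interval 0.707 to 1.105). It rested on 94 to 270 counts per fetus.

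The PIM kinases, which act in survival and growth, held the single member past the threshold. Whether Pim3 answers to growth hormone or STAT5 in these livers was not tested. Pim3 (chr15:88692616-88696150, plus strand, mm9) had 170.1, 158, 102, 128 and 153 CPM in MNR litters A to E, against 55.9, 88.1, 51.4, 73.6 and 85.3 CPM in control litters. All 5 MNR litters lay above all 5 control litters, and the closest were MNR litter C and control litter B. The means were 142 ± 27.5 CPM in MNR and 70.8 ± 16.7 CPM in control litters (SD, n = 5 each). The log2 fold change was 1.0 (SE 0.174; edgeR adjusted p = 0.0347), a 2.01-fold rise with an interval of 1.54 to 2.61, and Pim3 ranked 46 of 17573 genes by p.

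The call on Pim3 depended on which litters were present, while its size moved little. Without single litters the log2 fold change stayed between 0.91 and 1.104. The edgeR adjusted p was 0.0400 without MNR litter C, 0.0207 without MNR D and 0.0156 without control B, but 0.0941 without MNR A, 0.0896 without MNR B, 0.0966 without MNR E, 0.0890 without control A, 0.0871 without control C, 0.0859 without control D and 0.0561 without control E. With fetus 1 of each litter alone Pim3 stood at 0.96 on the log2 scale (edgeR adjusted p = 0.228), a setting in which 0 genes passed, and with fetus 2 alone 1.07 (edgeR adjusted p = 0.0304). Without the 3 fetuses with pancreatic transcripts it was 1.02 (edgeR adjusted p = 0.0199), and with the mean erythroid marker level as a covariate the edgeR adjusted p was 0.0456.

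Among single fetuses Pim3 ranged from 89.6 to 225 CPM (median 142) in MNR and from 41.2 to 97.9 CPM (median 73.1) in control livers. One MNR fetus, C_2, overlapped the control range, lying below control B_1 (97.9 CPM) and E_2 (94.2 CPM). The highest was MNR A_2, against 116 CPM in its littermate A_1. Without A_2 the log2 fold change of Pim3 was 0.89 and the edgeR adjusted p 0.0513, just outside the threshold. Neutrophil markers stood in the same direction, 8 of 8 positive with 0 past the test, their sum being 2117 to 3077 CPM in MNR and 1923 to 2193 CPM in control litters. Macrophage markers were positive in 9 of 9 with 0 past the test (sums of 420.1 to 484 CPM in MNR and 371 to 461 CPM in control litters), and megakaryocyte markers in 6 of 6 with 0 past the test (233 to 271 CPM in MNR and 212 to 263 CPM in control litters). Median log2 fold changes were 0.26 for neutrophil, 0.21 for macrophage and 0.25 for megakaryocyte markers, below the 1.0 of Pim3. The opposite direction was held by B cell precursor markers, 5 of 5 negative with 0 past the test (median log2 fold change -0.52; sums of 20.1 to 31.2 CPM in MNR and 23.5 to 49.7 CPM in control litters), and by 11 of 12 erythroid markers (median -0.10). Hepatocyte markers were positive in 6 of 9 (median 0.08) with 0 past the test. Stellate and endothelial markers were negative in 6 of 8 (median -0.06) with 0 past the test. No matched marker of these lists had 0 counts in all 20 fetuses. With the erythroid level as a covariate Pim3 passed, as given above, and the part of the other lists in its level was not tested.

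**Figure D3:**
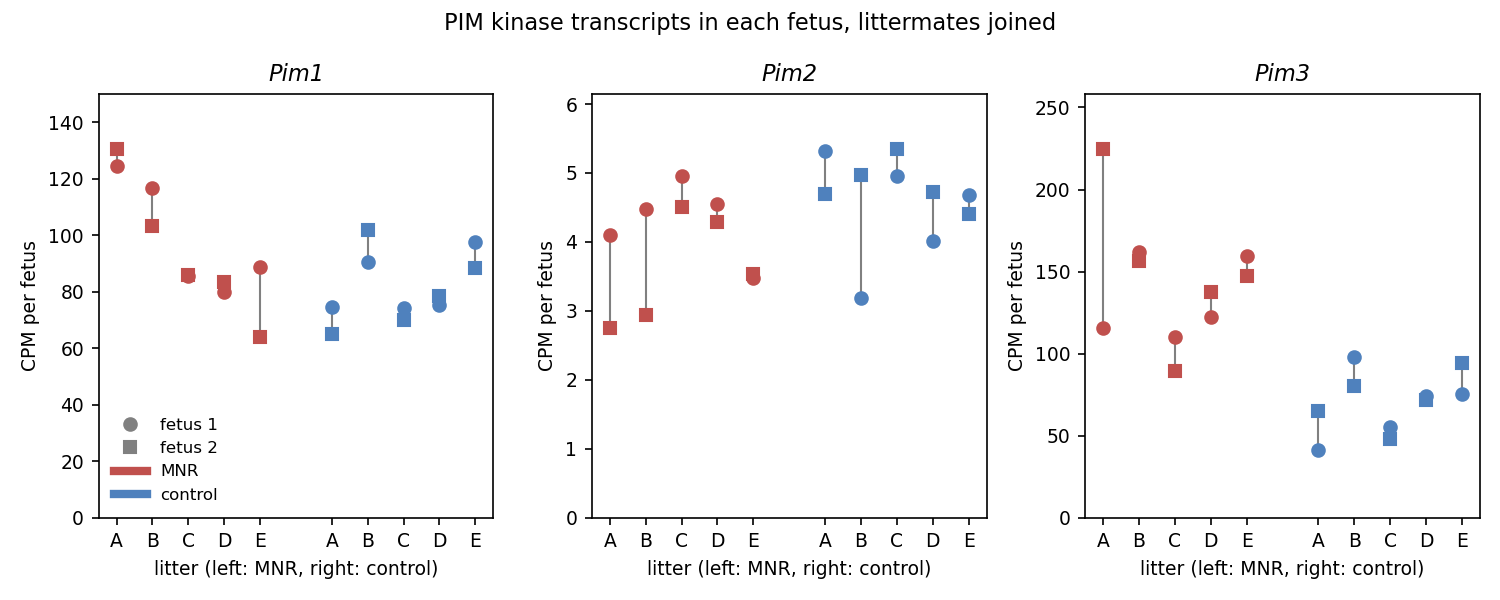
CPM of the PIM kinases in each fetus, on linear axes from 0, with MNR litters in red on the left of each panel and control litters in blue on the right; circles are fetus 1, squares fetus 2, and a line joins littermates. In the Pim3 panel MNR A_2 is the highest point at 225 CPM, and MNR C_2 at 89.6 CPM is the MNR point within the control range.

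Pim1 (chr17:29627757-29632390, plus strand, mm9), a known STAT5 target, had 127, 109, 86.2, 80.9 and 76.1 CPM in MNR litters, against 68.7, 96.2, 72.3, 77.0 and 93.4 CPM in control litters. MNR litters A and B lay above all control litters, and the other MNR litters lay within the control range. The log2 fold change was 0.23 (SE 0.147; edgeR adjusted p = 0.415), with a fold interval of 0.941 to 1.47. Without MNR litter A its log2 change was 0.11. Pim1 shares 468 exon bases with Gm16912 on the opposite strand, so its counts may include reads of that gene. Pim2 (chrX:7455388-7460558, plus strand, mm9) had 3.40 to 4.79 CPM in MNR and 4.14 to 5.20 CPM in control litters, and 3 of 5 MNR litters lay below every control litter. Its log2 fold change was -0.23 (SE 0.116; edgeR adjusted p = 0.310; fold interval 0.717 to 1.02), from 54 to 127 counts per fetus.

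The make-up of PIM transcripts differed between the groups in every litter. Pim3 held 58.7% ± 4.79 of the summed PIM counts in MNR litters (52.7% to 65.8%) and 44.8% ± 3.21 in control litters (39.9% to 47.5%; SD, n = 5 each). The log2 ratio of Pim3 to Pim1 was 0.57 ± 0.29 in MNR and -0.22 ± 0.17 in control litters. Pim3 counts exceeded Pim1 counts in each of the 5 MNR litters and were below them in each of the 5 control litters. These counts are not corrected for exon length, 2421 bases for Pim3 and 1972 for Pim1. Per length, Pim1 was the higher in MNR litter C, so the change of order in every litter holds for counts only. The Pim3 share and the ratio to Pim1 were chosen after the values were seen and are a description without a test. Both annotated transcripts of Pim3 passed the test over transcripts, Pim3-201 at 0.99 (SE 0.161; edgeR adjusted p = 0.0287) and Pim3-202 at 1.0 (SE 0.168; edgeR adjusted p = 0.0311). They were the 2 of 60 tested transcripts of members to pass, against 0.575% of 55494 transcripts in all. That share is likewise a description, because the members were chosen with earlier results known. The 2 transcripts are not independent, since Pim3-202 has 2 bases that Pim3-201 lacks. Pim3-201 held 53.0% of Pim3 counts in MNR and 53.3% in control litters.

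Levels of different genes were compared per length, as CPM per kb of annotated exon. In MNR litters Pim3 was highest at 58.7 ± 11.3, ahead of Pim1 at 48.6 ± 10.9, and these did not differ beyond their SD. Stat5b followed at 16.1 ± 2.18 and Ghr at 10.6 ± 0.349, each apart from its neighbours in the order. Cish at 6.61 ± 0.821, Socs2 at 6.33 ± 1.25, Prlr at 4.62 ± 0.631, Stat5a at 3.51 ± 0.501 and Socs3 at 2.60 ± 0.434 formed a run in which each overlapped the next, and Pim2 was lowest at 1.41 ± 0.223 (SD, n = 5 litters throughout). In control litters the order began with Pim1 at 41.3 ± 6.34 and Pim3 at 29.3 ± 6.89, whose SDs overlapped slightly. Within each control litter, however, Pim3 was below Pim1. The SDs give the spread between litters and leave out that the genes were measured in the same litters. The order went on with Stat5b at 13.9 ± 1.36 and Ghr at 11.6 ± 0.741. Socs2 at 7.10 ± 1.07, Cish at 6.38 ± 0.551 and Prlr at 5.48 ± 0.683 overlapped in turn, then Stat5a at 3.26 ± 0.106 and Socs3 at 2.95 ± 0.552, with Pim2 last at 1.66 ± 0.155. The receptor genes were intermediate, and per length Ghr was above Prlr in both groups. The exon length counts every annotated exon, used or not, so levels of genes with long rarely used exons are understated.

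**Figure D4:**
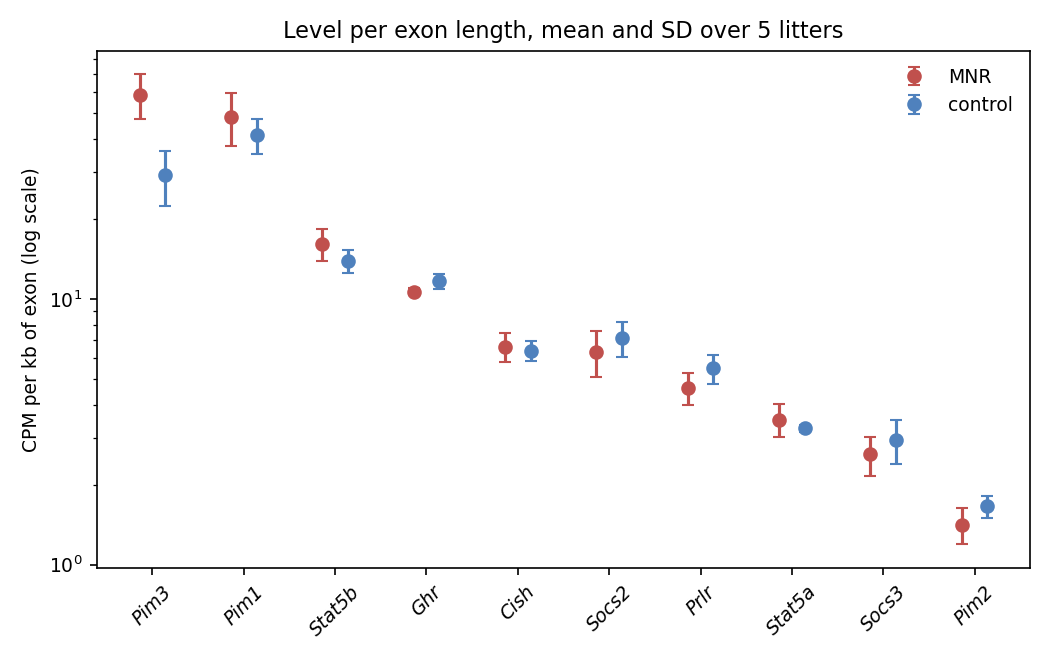
Mean CPM per kb of exon over 5 litters, with SD, for each member on a log axis, in the order of the MNR levels; MNR is red and on the left of each pair, control blue and on the right. The PIM kinases span the whole range, from Pim3 at 58.7 to Pim2 at 1.41 in MNR litters.

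A single liver stood at the edge of the range in most members. MNR A_2 held the highest or the lowest level of all 20 fetuses in 7 of 10 members. It was highest in Pim3, Pim1 (131 CPM), Stat5b and Stat5a (32.4 CPM), and lowest in Ghr (88.3 CPM), Socs2 and Pim2 (2.75 CPM). The next fetus, control A_1, did so in 3 members, being highest in Prlr (100.1 CPM) and Socs2 (91.1 CPM) and lowest in Pim3 (41.2 CPM). The total of MNR A_2, 20519729 counts, was within the range of the other fetuses. Without it the log2 fold change of Socs2, -0.16 with all fetuses, was -0.08 (edgeR adjusted p = 0.756). How often MNR A_2 stood at the edge over all genes was not counted, so its place is not shown to be particular to these members.

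Around the members, 76 genes of 7 pathway lists were tested, and 0 passed as higher and 0 as lower in edgeR. An unadjusted p under 0.05 was reached by 17 of 76, near the 19.6% of all genes, and the median log2 fold change was 0.04. Of the ligands and receptors that use STAT5 or STAT3 in liver and blood cells, Kit, the receptor of stem cell factor, had the smallest adjusted p, with 45.8 ± 6.60 CPM in MNR and 33.4 ± 2.74 CPM in control litters (SD, n = 5 each; log2 fold change 0.45, edgeR adjusted p = 0.0569). Il6ra, the interleukin-6 receptor, had 0.57 (edgeR adjusted p = 0.0674). The erythropoietin receptor gene Epor had -0.09 (edgeR adjusted p = 0.696) and Thpo, which encodes thrombopoietin, 0.03 (edgeR adjusted p = 0.906). Prl, the prolactin gene, had 0 counts in every fetus.

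Of the kinases, STATs and modifiers that act with the members, Jak2 had 48.5 ± 2.78 CPM in MNR and 44.5 ± 4.26 CPM in control litters (SD, n = 5 each; log2 fold change 0.12, edgeR adjusted p = 0.361). Stat6 had 0.19 (edgeR adjusted p = 0.137), Stat2 -0.21 (edgeR adjusted p = 0.245) and Stat4 0.32 (edgeR adjusted p = 0.293). Cbl, a ubiquitin ligase of activated receptors, had 0.33 (edgeR adjusted p = 0.0731), and the PIAS genes Pias3 and Pias2 had -0.22 (edgeR adjusted p = 0.128) and 0.15 (edgeR adjusted p = 0.137). Of the other SOCS genes, 5 tested, Socs5 had -0.24 (edgeR adjusted p = 0.173), Socs1 0.36 (edgeR adjusted p = 0.451) and Socs6 -0.05 (edgeR adjusted p = 0.691).

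Among genes that growth hormone controls through STAT5 in adult mouse liver, 12 were tested, 7 positive and 5 negative. The list does not separate genes that the hormone raises from genes that it lowers, so these signs give no direction for its action. Igf1, the circulating growth factor, had 27.0 ± 3.19 CPM in MNR and 36.9 ± 7.79 CPM in control litters (SD, n = 5 each; log2 fold change -0.45, SE 0.131, edgeR adjusted p = 0.0987). Igfals, which encodes the acid-labile subunit of the circulating complex that carries IGF1, had -0.12 (edgeR adjusted p = 0.574). The transcription repressor gene Bcl6 had 0.45 (edgeR adjusted p = 0.142) and the hepatocyte transcription factor gene Onecut1 0.40 (edgeR adjusted p = 0.148). Of 10 genes that erythropoietin controls through STAT5, Ccnd2, encoding cyclin D2, had -0.30 (edgeR adjusted p = 0.156), Osm 0.34 (edgeR adjusted p = 0.226) and the transferrin receptor gene Tfrc -0.20 (edgeR adjusted p = 0.260). Of 13 acute phase genes, Lcn2 had 0.25 (edgeR adjusted p = 0.267), Hpx -0.11 (edgeR adjusted p = 0.535) and Orm1 0.31 (edgeR adjusted p = 0.568).

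The genes most like 4 of the members were sought over the 20 fetuses, as the correlation of log2 CPM with group means subtracted from each gene. These values describe the ranking only, and littermates share a dam. Nearest to Ghr were Gm10093 (Pearson r 0.77, Spearman rho 0.74), Eef2k (0.77, 0.76) and Kif12 (0.76, 0.75). Kif12 was low, with means of 1.63 CPM in MNR and 3.94 CPM in control litters. Nearest to Socs2 were Lsm2 (0.84, 0.65), Cldn13 (0.82, 0.65) and Msl2 (0.79, 0.74), and nearest to Cish were Zfp174 (0.83, 0.88), Usp49 (0.80, 0.85) and Sh3yl1 (0.80, 0.67). Nearest to Pim1 were Atp6v1b2 (0.82, 0.82), Tbc1d8 (0.81, 0.80) and Atp6v1d (0.80, 0.80). For Socs2 and Ghr the rank correlation was below the linear one with each of their 3 neighbours, by more for Socs2.

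**Figure D5:**
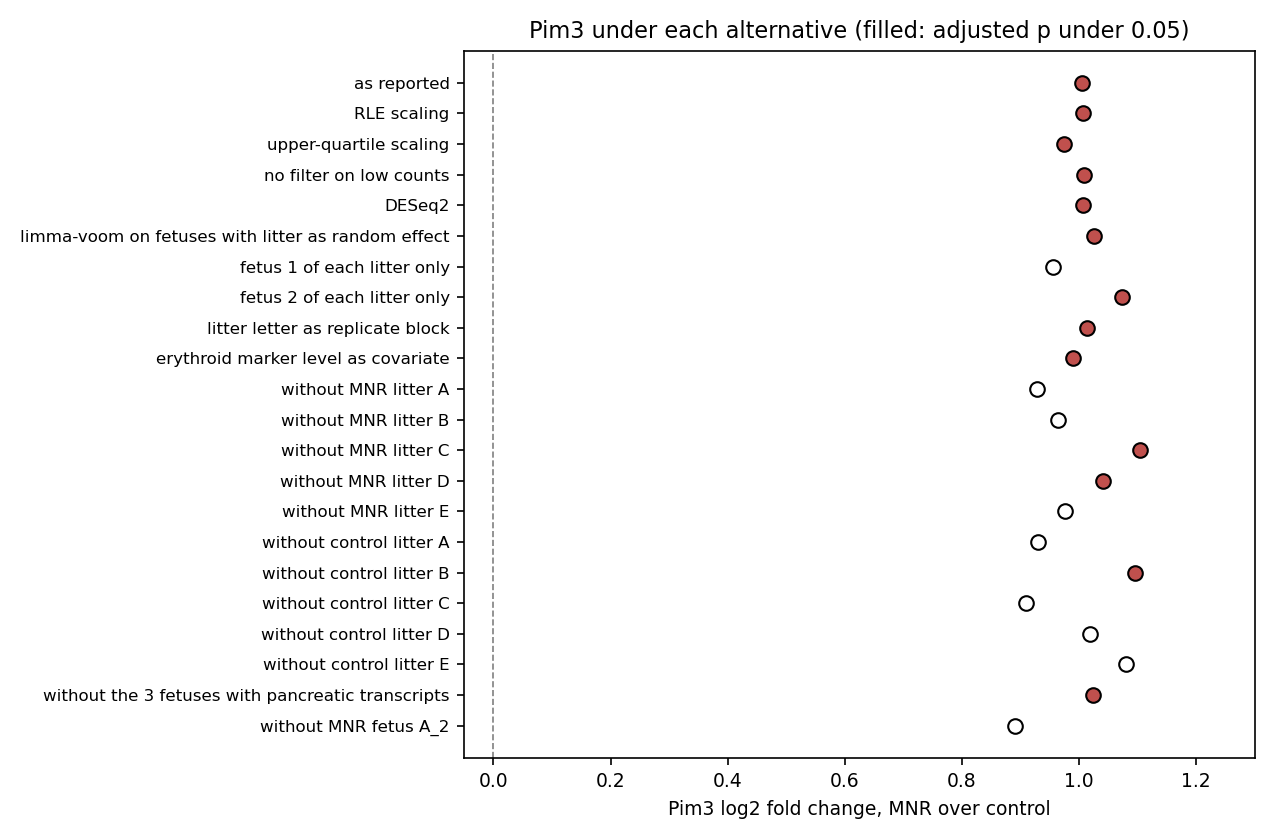
The log2 fold change of Pim3, MNR over control, as reported (top) and under 21 alternatives; a filled point has an adjusted p under 0.05. All points lie between 0.89 and 1.104, and 12 of the 21 alternatives are filled.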

How the data were processed

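Per the labels' protocols, frozen liver was pulverised and polyadenylated RNA was made into strand-preserving libraries. The deposited values are whole-number counts per transcript for each of 20 fetuses, not normalised by the authors. FastQC, Bowtie2, DESeq2, edgeR and build mm9 are named in the submitters' processing notes. The sources used here do not state the counting tool, its use of strand or its handling of reads with several matches. A deposited gene table of the series equalled the summed counts for 8.52% to 9.66% of genes and was not used.

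Transcript counts were summed to genes with the mm9 annotation (GENCODE M1). Transcripts without a gene held 0.0788% to 0.154% of counts. The diet acts through the dam, so the 2 littermates were summed and litters compared with edgeR 4.0.16 (R 4.3.3) after filterByExpr (minimum count 10). Log2 CPM used a prior count of 2 for the correlations and the erythroid marker level. Differences between littermates, SDs on the log2 scale and the ratio of Pim3 to Pim1 used CPM without a prior. The edgeR p-values set the difference between groups against the spread between litters. The limma-voom alternative was fitted on fetuses with litter as a random effect. All 90 pairs of fetuses of a group differed beyond sampling noise (chi-square per degree of freedom 9.78 to 79.1). All members were named, and for each pathway list up to 3 genes of smallest p plus Igf1, Igfals, Jak2, Epor and Thpo; a gene that this rule picks is not reported here. The genes most like Ghr, Socs2, Cish and Pim1 were the 3 protein-coding genes of highest correlation, and transcripts were eligible from a mean of 50 counts per litter. The members and lists were chosen with earlier results of these data known. Alternatives covered scaling, the filter, DESeq2 1.42.0, limma-voom (3.58.1), a single fetus per litter, the litter letter as a block, an erythroid covariate and leaving out litters. Removal of the 3 fetuses with pancreatic transcripts, and of MNR fetus A_2, was chosen after seeing the data.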

Additional observations from a re-analysis of the deposited data

Results flagged for a closer look

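Of 40 sets of member values examined for a sample far from the others, 2 were picked out, and chance picks about 1 in 20. Each of the 2 was a set of the 10 fetuses of a group. The sets share fetuses and are not independent. Prlr in control fetus B_1 was 53.1 CPM, against a group median of 87.5 CPM and a highest value of 100.1 CPM. That fetus is 1 of the 3 with pancreatic transcripts (511 Cpa1 counts), whose part in the Prlr level was not tested. Stat5b in MNR fetus A_2 was 124 CPM, against a group median of 89.8 CPM and a lowest value of 74.4 CPM.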

How the results depend on the processing

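Pim3 kept its direction in all 21 alternatives and passed the threshold in 12, with adjusted p from 5.9e-06 (DESeq2) to 0.228 (fetus 1 alone). The other 9 members passed in 0 of 21, and kept their sign except Cish, which was -0.028 with fetus 2 of each litter alone. Members called were 0 with fetus 1 alone and 0 without MNR fetus A_2, and 0 to 1 without single litters, against 1 with all data. Genes called over the whole table, 117 as reported (73 higher, 44 lower), were 178 with upper-quartile scaling (68 higher, 110 lower), 1163 with DESeq2, 1084 with limma-voom, 0 with fetus 1 alone (1699 with an unadjusted p under 0.05), 499 with fetus 2 alone, 215 without the 3 fetuses with pancreatic transcripts, 62 without MNR fetus A_2, and 0 to 843 without single litters; the cause was not tested. With upper-quartile scaling the median log2 fold change of all genes was -0.03. With the litter letter as a replicate block 232 genes passed, and Pim3 stood at 1.01 on the log2 scale (edgeR adjusted p = 0.0164). Correlations between litters of equal letter were 0.03, 0.18, 0.15, 0.16 and -0.009 for A to E, above 0.1 in 3 of 5, and the own letter was best for 2 of 5. The letters were therefore not taken as pairs. No other member's call changed under the replicate block. Member transcripts called were 0 to 3 without single litters, against 2.

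The share of Ghr-005, -2.50 percentage points in MNR minus control litters, was -2.65 as the mean of the littermates' shares (exact permutation p = 0.0476, not adjusted). It was -3.18 to -1.92 without single litters, with an unadjusted exact permutation p of 0.0317 to 0.143. With all litters its exact permutation p was 0.472 after Benjamini-Hochberg adjustment over 7 shares. Without single litters the difference was -1.14 to 0.95 for Prlr-005, 0.23 to 0.97 for Stat5b-002 and -0.64 to 0.12 for Pim3-201; the cause was not tested. The depth limits Pim2 and Socs3 most, at 54 to 127 and 94 to 270 counts per fetus. No protein or phosphorylation was measured here.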
